A study of Homo sapiens with 45 samples.

Results

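The 47 genes described here encode proteins that build ribosomes in the nucleolus, and they were taken as a list of symbols, drawn up with earlier results of these data known. Each symbol was found among the 29159 genes of the count tables, and 47 of 47 passed the filter on low counts in each of the 3 cell lines (14055, 14293 and 14547 genes tested in SK-N-BE(2)C, followed by IMR-32 and by SH-SY5Y). RNA was measured by polyA RNA-seq in 45 libraries of human neuroblastoma lines, 5 replicates in each of 9 groups: a control, 24 h of palbociclib (PB, an inhibitor of CDK4 and CDK6) at 1 μM, and longer PB, lasting 7 days for SK-N-BE(2)C, and 5 days for the other lines. SK-N-BE(2)C carries amplified MYCN and a loss on 1p, IMR-32 carries amplified MYCN and MEIS1 with a loss on 1p, and SH-SY5Y has no amplified MYCN but mutant ALK with gains on 1q and 17q, all grown in DMEM/F12 with serum. Replicates were different passages plated in independent experiments. Only 1 line lacks MYCN amplification, so amplification cannot be told apart from the other differences between the lines, and the longer time differs by line, so time and line cannot be told apart when SK-N-BE(2)C is compared with the others. Control libraries come from the 24 h collection, and longer PB cannot be told apart from longer culture.

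RNA polymerase I transcribes the ribosomal RNA precursor in the nucleolus, small nucleolar ribonucleoproteins (snoRNPs) modify and help to cut it, and assembly factors fold it with ribosomal proteins into the small and large subunits. MYC and MYCN, transcription factors that bind the E-box with their partner MAX, are known to drive many of these genes, and PB blocks the kinases that release E2F by phosphorylating RB. The members fall into 5 roles: 5 genes of polymerase I transcription, 8 of snoRNPs, 14 of small subunit assembly, 15 of large subunit assembly, and 5 abundant nucleolar proteins with several roles. With longer PB 35 of 47 members were called lower in SK-N-BE(2)C, where all genes tested were called lower in 22.3%. In IMR-32 15 of 47 were called lower against 15.5% of all genes, and in SH-SY5Y 14 of 47 against 17.3%. The median log2 fold change of the members was -0.67 for SK-N-BE(2)C, -0.42 for IMR-32 and -0.31 for SH-SY5Y, with 0.01, 0 and 0.01 over all genes tested.

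A gene was called when its adjusted p was under 0.05 and its log2 fold change beyond 0.5 in either direction, and each adjusted p given here comes from edgeR's quasi-likelihood test with Benjamini-Hochberg adjustment over all genes tested. Counts at an unadjusted p are given without a share of all genes and are not read as a result about the members. Levels are CPM (counts scaled to the library total) after TMM scaling, and errors of fold changes are standard errors (SE). These are bulk and relative values: fewer cells of a kind and less RNA per cell cannot be told apart, and total RNA per cell was not measured.

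Sequence around the annotated start sites was looked up for the members because the E-box is the site of the MYC family. RefSeq promoters (250 bases before to 50 after the start, table build GRCh38.p14, each matched base for base to 1 place in GRCh37) were held for 39 of 47 members. The E-box CACGTG, which reads the same on both strands, was found in 15 of 39 (38.5%), in 7.26% of all 35116 promoters of the table and in 8.47% of the 22093 promoters of genes in the counts. Within 50 bases of the start it was found in 13 of 39 (33.3%) and in 2.82% of all promoters. The members were listed as growth machinery driven by MYC and MYCN. An excess over all promoters may be built into that choice and is not an independent result. Small subunit factors held it in 8 of 13 promoters, large subunit factors in 4 of 11, snoRNP genes in 2 of 6, the several-role genes in 1 of 5 and polymerase I genes in 0 of 4. NOP10 was the member with 2 matches. The E2F-type sequences TTTCCCGC and TTTGGCGC, searched on both strands and not overlapping CACGTG, were found in 1 of 39 (2.56%, all promoters 1.63%) and 0 of 39 (all promoters 0.652%). A match is a run of letters and not a measured binding site, and binding was not measured here. The 8 promoters below, 70 bases before to 30 after the start and written 5′ to 3′ on the gene's strand with CACGTG in capitals, belong to FBL, UTP20, MRTO4, WDR43, NOP14 and RRP9, which fell by over 0.8 on the log2 scale in SK-N-BE(2)C at 7 d, to PES1 of the PeBoW complex of large subunit assembly, and to NOL6, whose response differed between SH-SY5Y and SK-N-BE(2)C.
FBL (chr19:40336990-40337089, minus strand): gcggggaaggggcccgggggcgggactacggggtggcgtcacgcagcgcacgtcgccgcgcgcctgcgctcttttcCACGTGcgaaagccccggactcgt
UTP20 (chr12:101673813-101673912, plus strand): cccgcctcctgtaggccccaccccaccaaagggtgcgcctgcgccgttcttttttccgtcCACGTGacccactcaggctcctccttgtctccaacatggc
MRTO4 (chr1:19578229-19578328, plus strand): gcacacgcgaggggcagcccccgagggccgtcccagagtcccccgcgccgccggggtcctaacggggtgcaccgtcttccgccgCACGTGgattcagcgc
WDR43 (chr2:29117463-29117562, plus strand): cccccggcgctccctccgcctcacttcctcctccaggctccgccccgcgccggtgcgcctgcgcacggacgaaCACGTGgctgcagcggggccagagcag
NOP14 (chr4:2965104-2965203, minus strand): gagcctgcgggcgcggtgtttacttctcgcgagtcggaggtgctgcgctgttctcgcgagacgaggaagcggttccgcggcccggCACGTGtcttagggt
RRP9 (chr3:51975891-51975990, minus strand): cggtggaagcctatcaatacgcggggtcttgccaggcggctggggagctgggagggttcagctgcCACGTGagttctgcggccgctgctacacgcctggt
PES1 (chr22:30987868-30987967, minus strand): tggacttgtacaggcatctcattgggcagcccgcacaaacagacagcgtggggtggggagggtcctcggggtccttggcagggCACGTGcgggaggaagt
NOL6 (chr9:33473893-33473992, minus strand): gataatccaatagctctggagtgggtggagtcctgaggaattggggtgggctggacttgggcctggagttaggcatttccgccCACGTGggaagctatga
The capitals in 6 of these 8 windows lie just after the start, within the 30 bases of the transcript that are shown, while in UTP20 they lie before it and in RRP9 they span it.

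**Figure D1:**
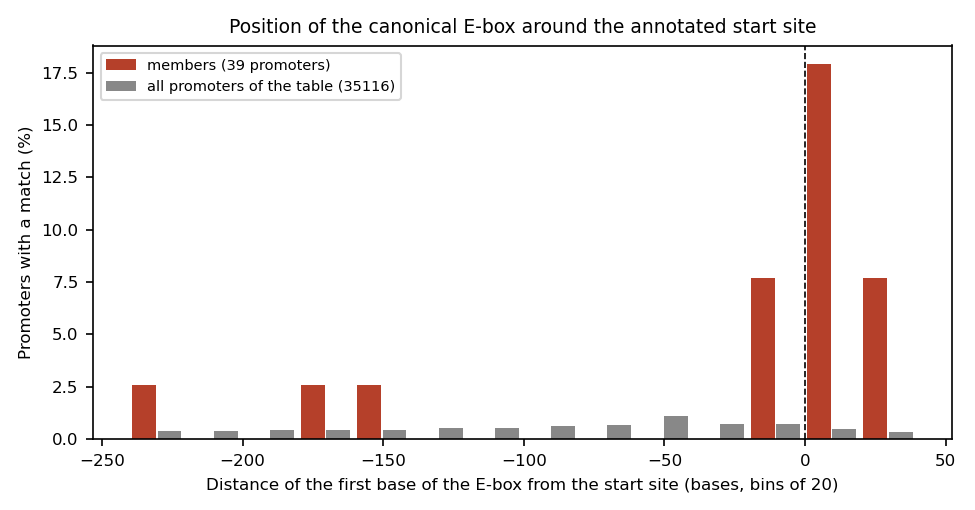
Share of promoters (y axis, percent) with an E-box whose first base lies at each distance from the annotated start site (x axis, bases, bins of 20), for the 39 member promoters and all 35116 promoters of the table. The tallest member bars (7.69% to 17.9%) lie from 20 bases before to 40 after the start, and 3 bars of 1 promoter each (2.56%) lie further upstream.

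Libraries held 13459219 to 25441812 counts (median 18494528), so 1 CPM is 13.5 to 25.4 reads. Replicate 5 of IMR-32 stood apart: the median member was 0.35 above the control mean on the log2 scale in its control library and 0.29 above it at 24 h, while the other IMR-32 controls lay between -0.15 and 0.02. The same library stood apart in cell state markers: its control held SNAI2 at 30 CPM (others at most 1.1), YAP1 at 18.5 (others at most 1.53), VIM at 842 (others 335 to 382), ISL1 at 65 (others 152 to 167) and TH at 0.856 (others 13.7 to 25.2). At 24 h IMR-32 replicate 2 also stood apart over all genes. Its chi-square per degree of freedom was 40.4 to 86.9 against each other 24 h library, while replicates 1, 3 and 4 gave 3.93 to 9.51 among themselves. Among the SK-N-BE(2)C controls and 24 h libraries, though not at 7 d, replicates 3 to 5 resembled each other more than the others did. The adrenergic marker genes fixed as a list were measured in all lines, each at 15.1 CPM or more in control means except TH, at 0.326 CPM in SH-SY5Y, and of 9 mesenchymal markers 8 were found, with control means from 0.0326 CPM (FOSL1, IMR-32) to 991 CPM (VIM, SH-SY5Y). The MCM helicase genes, which follow the cell cycle, fell in 6 of 6 cases after 24 h of PB in each line, with medians of -1.38, -2.21 and -1.90.

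MYCN and MYC differed between the lines. MYCN stood at 4619, 3506, 3439, 3976 and 3830 CPM in the SK-N-BE(2)C controls, at 1865, 1677, 1866, 1885 and 1379 CPM in IMR-32 and at 4.56, 6.14, 5.65, 7.71 and 5.49 CPM in SH-SY5Y. MYC stood at 73.7, 80.5, 78.7, 83 and 73.1 CPM in the SH-SY5Y controls and at 0.519 CPM or less in each control library of the MYCN-amplified lines. SH-SY5Y controls held MYC and little MYCN, and the reverse held for the other lines. With PB, MYCN in SK-N-BE(2)C was at 5443, 4728, 4606, 4774 and 5290 CPM at 24 h and 2449, 1893, 2546, 2666 and 2513 CPM at 7 d, below every control, a log2 fold change of -0.71 ± 0.10 (SE) with an adjusted p of 5.7e-06. In IMR-32 MYCN was called higher at 24 h (0.58 ± 0.09, adjusted p = 0.00011), and at 5 d its change of 0.32 ± 0.09 (adjusted p = 0.0056) was below the fold limit. MYC in SH-SY5Y was at 24.6, 38.3, 66.3, 77.8 and 75.9 CPM at 5 d, from far below to within the controls, and did not pass the test (-0.47 ± 0.25, adjusted p = 0.11). At 7 d in SK-N-BE(2)C MYC rose from a mean of 0.298 to 2.43 CPM (3.05 ± 0.47, adjusted p = 2.4e-05), and stayed far below MYCN.

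Untreated cells were compared first, since the longer response starts from these levels. Per kilobase of exon, NCL and NPM1 were the most abundant members for SK-N-BE(2)C (250 and 229 CPM per kb of control level) and for IMR-32 (170 and 184), and in SH-SY5Y NHP2 came first (123) ahead of NCL (105) and NPM1 (93.1). BRIX1 had the lowest control level per kilobase in each line, between 0.572 and 1.12 CPM per kb. In SH-SY5Y 26 of 47 members were called lower than in SK-N-BE(2)C (all genes 27.9%) and 3 higher (all genes 29.7%), with a median difference of -0.62. Against IMR-32, 8 were lower (all genes 26.6%) and 13 higher (27.7% of members and of all genes), with a median difference of 0.21, about its SD of 0.209 between libraries. SK-N-BE(2)C itself exceeded IMR-32 for 22 members (all genes 30.8%) and was below it for 4 (all genes 31.3%), with a median of 0.44. Scaling to library totals alone, which moved the median of all genes to 0.19 and 0.18 in the contrasts of SH-SY5Y with SK-N-BE(2)C and IMR-32, gave 20 lower and 7 higher against SK-N-BE(2)C and 4 lower and 18 higher against IMR-32.

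Called lower in SH-SY5Y than in both MYCN-amplified lines were NCL, NPM1, BOP1, NOP14 and RRP1B, and called higher than in both were POLR1B and EBNA1BP2. NPM1, a histone and ribosomal protein chaperone, was at 696, 764, 807, 772 and 829 CPM in the SH-SY5Y controls, at 1970, 2064, 1865, 1751 and 1869 CPM in SK-N-BE(2)C and at 1389, 1462, 1561, 1386 and 1859 CPM in IMR-32. None of the 5 SH-SY5Y libraries overlapped the others, and the differences were -1.35 ± 0.11 (adjusted p = 1.6e-14) against SK-N-BE(2)C and -0.98 ± 0.11 (adjusted p = 1.1e-10) against IMR-32. BOP1, which forms the PeBoW complex of large subunit assembly with PES1 and WDR12, was at 64.1, 61.2, 68.5, 68 and 62.4 CPM in SH-SY5Y, 115, 105, 110, 111 and 113 CPM in SK-N-BE(2)C and 166, 152, 177, 153 and 180 CPM in IMR-32. The 3 lines did not overlap, and the differences of SH-SY5Y were -1.35 ± 0.10 from IMR-32 (adjusted p = 1e-15) and -0.82 ± 0.10 from SK-N-BE(2)C (adjusted p = 8.7e-10). Its partners did not share this order: PES1 and WDR12 were lower in SH-SY5Y than in SK-N-BE(2)C (-0.78 ± 0.11 and -0.85 ± 0.07), and against IMR-32 their differences of 0.36 ± 0.11 and -0.04 ± 0.07 were within the fold limit. POLR1B, the second subunit of polymerase I, went the other way, at 133, 130, 121, 139 and 140 CPM in SH-SY5Y, 78.6, 82.5, 74.9, 76.8 and 70.7 CPM in SK-N-BE(2)C and 63.2, 63, 66.9, 57 and 80.4 CPM in IMR-32. Every SH-SY5Y library was above every other library, with differences of 0.74 ± 0.10 (adjusted p = 2.1e-08) and 1.01 ± 0.10 (adjusted p = 1.1e-11). The largest control differences of all were of NOP16 and RRS1, large subunit factors, which were higher in SK-N-BE(2)C than in IMR-32 by 1.82 ± 0.15 and 1.80 ± 0.15.

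**Figure D2:**
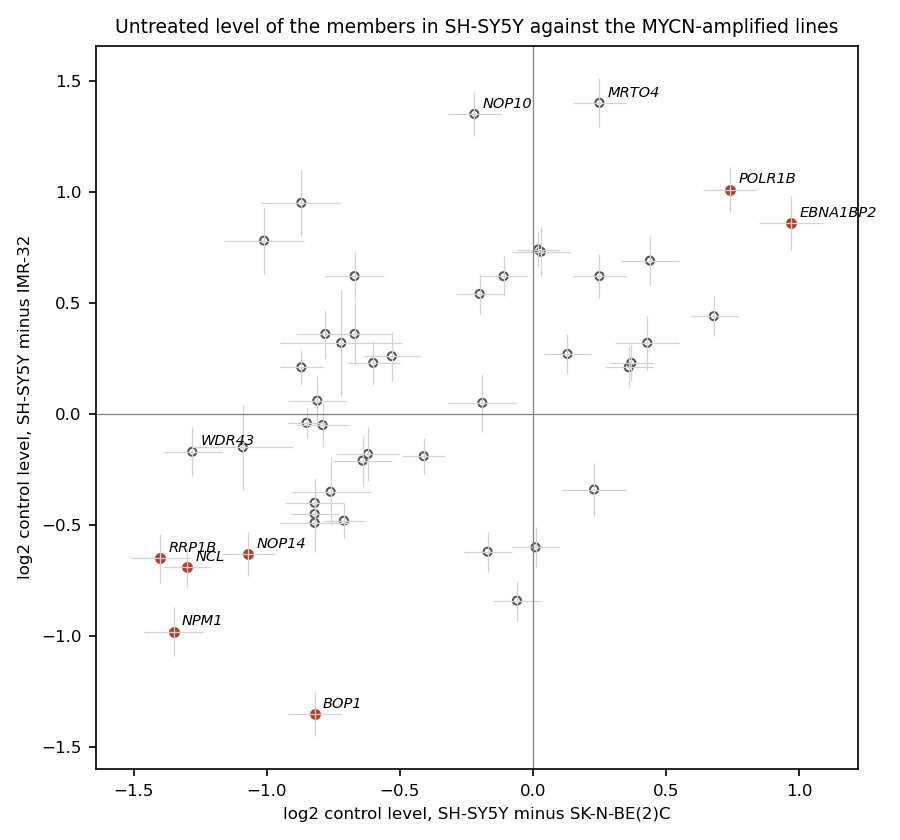
Difference in log2 control level between SH-SY5Y and SK-N-BE(2)C (x axis) and between SH-SY5Y and IMR-32 (y axis) for the 47 members, with SE as grey bars and filled points for members called alike in both. Both axes share the SH-SY5Y libraries. More points lie left of 0 (33) than below 0 (21), with 5 filled points at lower left and 2 at upper right.

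After 24 h of PB, when the MCM genes had already fallen, the members as a group were close to the controls. In SK-N-BE(2)C 1 of 47 members was called lower (all genes 10.6%) and 0 higher (all genes 10.9%), with 28 of 47 fold changes below 0. At an unadjusted p under 0.05, 9 were higher, and DESeq2 called 2 lower and 0 higher. On the adjusted p alone, with no fold limit, 13 were lower (all genes 23%) and 8 higher (all genes 23.7%), and 10 and 13 members did not overlap with the controls (all genes 16.3% lower and 22.4% higher). The called member was FBL, the methyltransferase of the box C/D snoRNPs, at 258, 248, 214, 219 and 232 CPM against 387, 349, 313, 312 and 327 CPM in the controls. No treated library reached the lowest control, and the change was -0.58 ± 0.09 (adjusted p = 1e-04). Subunits of polymerase I differed in the other direction, within the fold limit: POLR1A, POLR1B and POLR1C changed by 0.17 ± 0.06, 0.28 ± 0.07 and 0.42 ± 0.10, each with an adjusted p under 0.05. Its regulators UBTF and TCOF1 changed by -0.50 ± 0.07 (adjusted p = 4e-05) and -0.45 ± 0.07 (adjusted p = 0.00011), at or within the limit. UBTF lay on the limit, called with RLE scaling and with DESeq2, and its 5 treated libraries lay below the 5 controls.

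In IMR-32 at 24 h 0 members were called lower (all genes 10.5%) and 2 higher (all genes 7.87%), POLR1C by 0.50 ± 0.14 (adjusted p = 0.011) and PPAN, a large subunit factor, by 0.52 ± 0.19 (adjusted p = 0.04). In this fit 4 members were lower at an unadjusted p under 0.05, and DESeq2 called 1 member, lower. The groups did not overlap for 1 member lower (all genes 13.4%) and 1 higher (all genes 9.68%). PPAN shares 1422 exonic bases with a read-through gene on the same strand and POLR1C 1009 with a gene on the other strand, so their counts are uncertain. The replicate block left 1 call, higher. Both calls were lost with RLE or library-size scaling, without the filter, and without control replicate 2. In SH-SY5Y 1 member was called lower (all genes 11%) and 0 higher (all genes 10.5%): NOP56, a core protein of the box C/D snoRNPs, by -0.61 ± 0.09 (adjusted p = 1.3e-05). Its partner NOP58 (-0.49 ± 0.12), NCL (-0.47 ± 0.10) and TCOF1 (-0.49 ± 0.06) came close to the limit with adjusted p of 0.0025 or less. On the adjusted p alone 14 members were lower (all genes 22.8%) and 3 higher (all genes 26.4%) in SH-SY5Y, 3 were higher at an unadjusted p under 0.05, and DESeq2 called 3 lower and 0 higher. The 24 h response was called different between lines for 0 of 47 members in each of 4 contrasts by edgeR's quasi-likelihood test and by DESeq2. All genes were called lower and higher in 0.54% and 1.01% for SH-SY5Y minus the mean of the MYCN-amplified lines, 0.946% and 1.09% for SH-SY5Y minus SK-N-BE(2)C, 1.04% and 2.03% for SH-SY5Y minus IMR-32, and 1.71% and 2.78% between the MYCN-amplified lines, so 0 of 47 is near these shares. At an unadjusted p under 0.05 the members lower and higher were 5 and 0, 2 and 1, 5 and 0, and 6 and 2 in the same order. These counts have no share of all genes beside them.

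**Figure D3:**
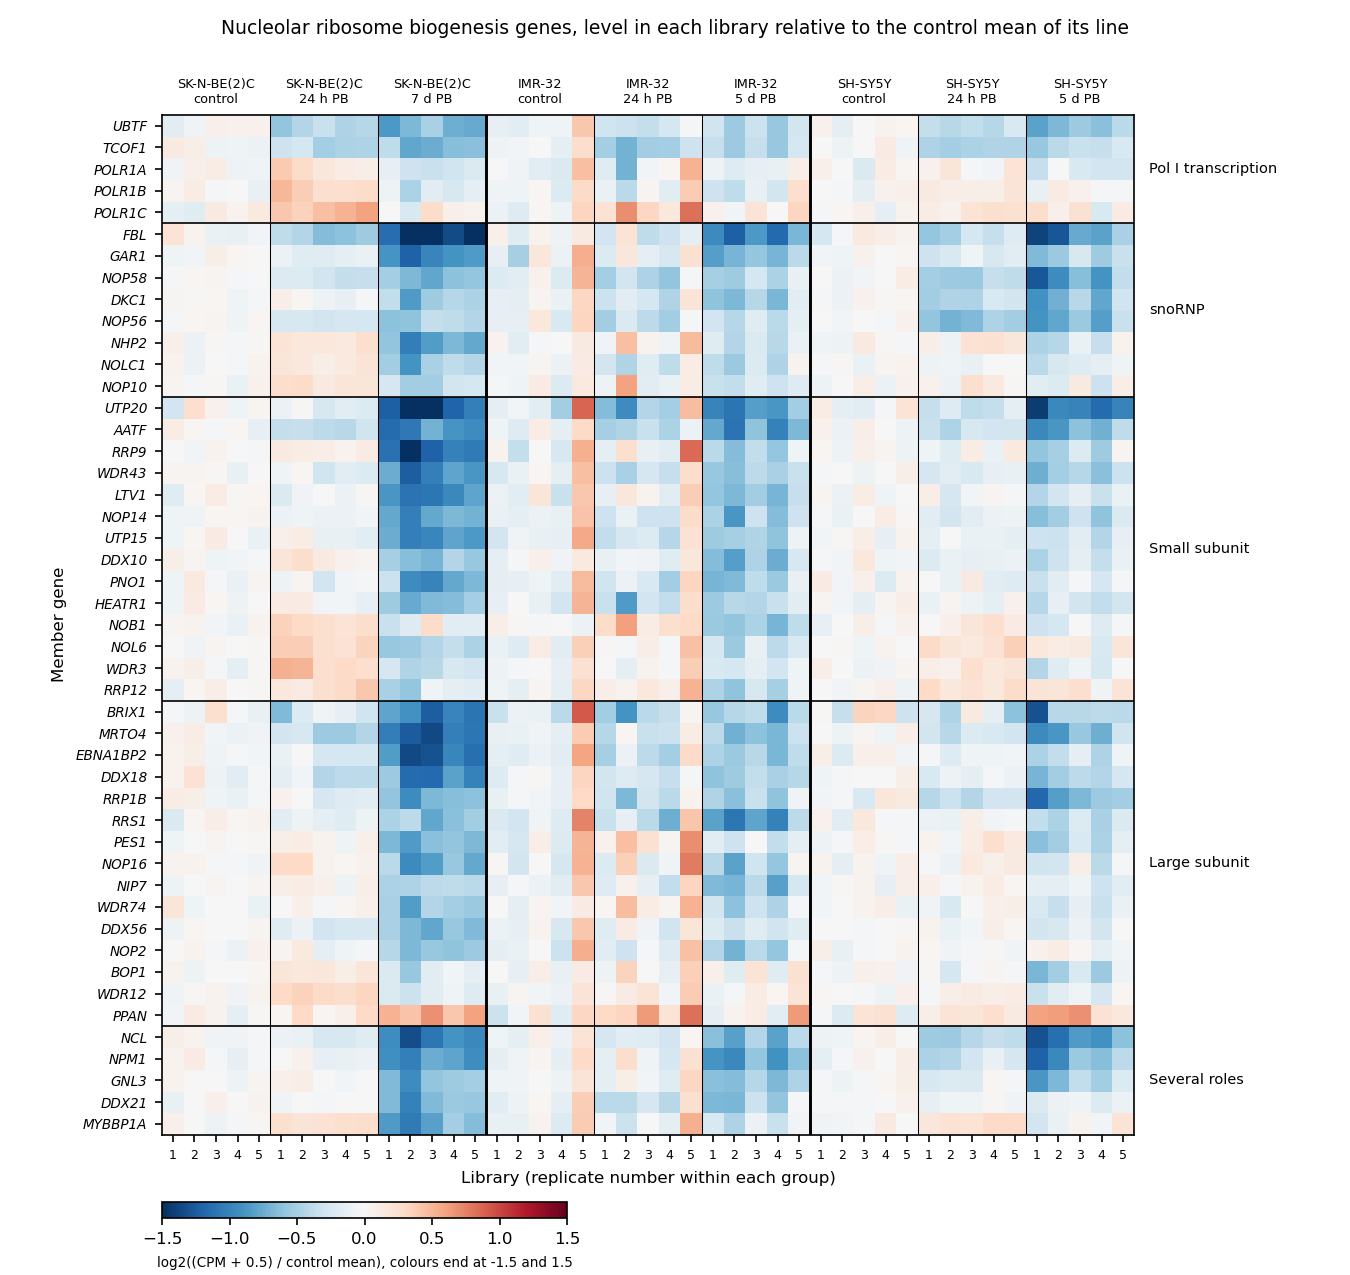
Level of each of the 47 members (rows, ordered by role) in each of the 45 libraries (columns, grouped by line and condition) as log2 of CPM plus 0.5 relative to the control mean of its line, blue lower and red higher. The longer PB columns are blue for 44 to 46 members in SK-N-BE(2)C, 39 to 46 in IMR-32 and 37 to 46 in SH-SY5Y, and the red column among the IMR-32 controls is replicate 5.

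With longer PB the direction was shared by nearly all members: 40 of 47 fold changes were below 0 in all 3 lines. In SK-N-BE(2)C the groups did not overlap for 41 members lower at 7 d (all genes 27.3%) and 1 higher (all genes 26.4%), with 1 of 47 called higher (all genes 24.5%), PPAN. In IMR-32 18 members did not overlap, all lower at 5 d (all genes 20.6%), and in SH-SY5Y 24, all lower (all genes 23.2%). Called higher at 5 d were 0 members in IMR-32 (all genes 16.6%) and 0 in SH-SY5Y (all genes 18.6%), where 0 and 2 were higher at an unadjusted p under 0.05. On the adjusted p alone 44 members were lower for SK-N-BE(2)C (all genes 35.8%), 28 for IMR-32 (all genes 25.6%) and 36 for SH-SY5Y (all genes 32.5%). The IMR-32 count of 15 became 9 without control replicate 5 and 12 without replicate 5 of all 3 groups. DESeq2 called 0 members higher in IMR-32 and SH-SY5Y. Mesenchymal markers fell beside the members: 5 of 7 tested were called lower for SK-N-BE(2)C (median -0.94), 5 of 6 for IMR-32 (median -1.97) and 5 of 8 for SH-SY5Y (median -0.60), with FN1 higher in SK-N-BE(2)C and FOSL1 higher in SH-SY5Y. Their summed level was 652 to 882 CPM in controls and 420 to 713 CPM with longer PB for SK-N-BE(2)C, 692 to 1299 and 296 to 501 CPM for IMR-32, and 1307 to 1779 and 842 to 1007 CPM for SH-SY5Y, and their part in the members' fall was not tested. By number of lines, 7 members were called lower in all 3, 12 in 2, 19 in 1 and 9 in none. The 12556 genes tested in every line were called lower in all 3 in 6.5%, in 2 in 9.42%, in 1 in 15.8% and in none in 68.3%. Of the 19, 16 were called in SK-N-BE(2)C, and of the 45 members with a fold change below 0 in any line it was lowest in SK-N-BE(2)C for 36, in IMR-32 for 4 and in SH-SY5Y for 5. Since the control libraries also serve the 24 h comparison, both sets of fold changes share them.

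**Figure D4:**
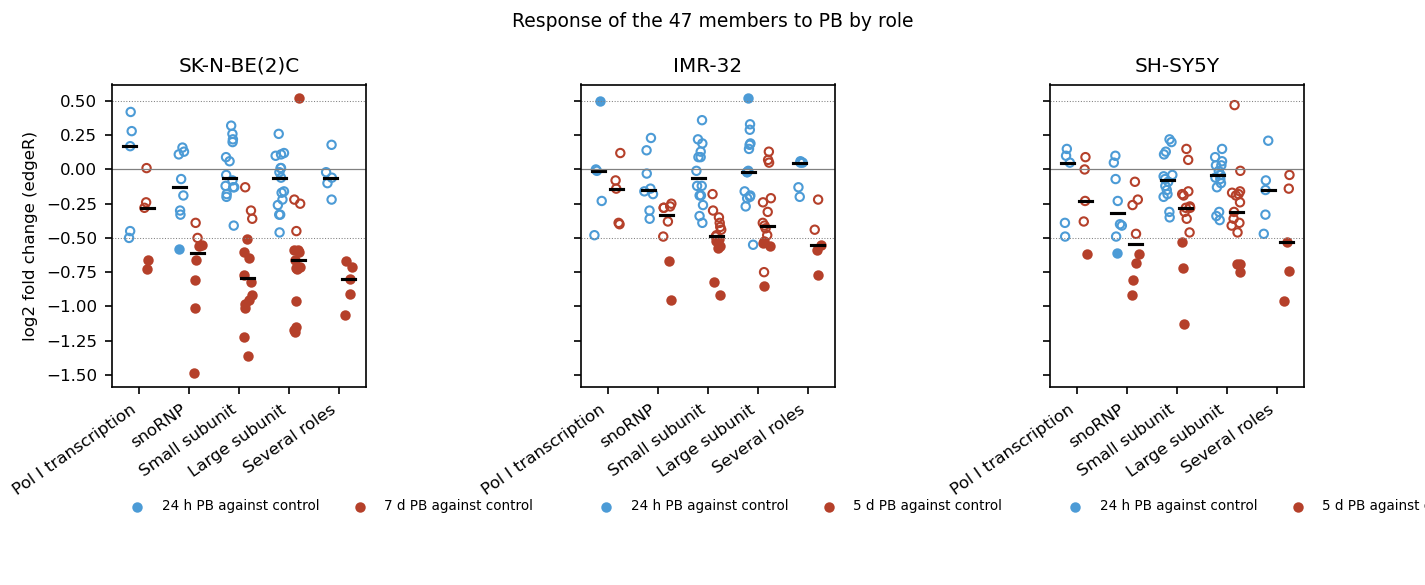
log2 fold change of each member against control at 24 h (blue) and with longer PB (red) by role (x axis) in the 3 lines, filled where called and with the median of each role as a black bar. Dotted lines mark 0.5 and -0.5. The red medians lie below the blue ones in each role and line, and both colours share the control libraries.

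Among the 5 genes of polymerase I transcription, UBTF and TCOF1 were called lower in 1 or more lines and the 3 polymerase subunits in none. UBTF, which binds ribosomal DNA and opens its promoter, was at 187, 200, 219, 218 and 218 CPM in the SK-N-BE(2)C controls, 138, 153, 165, 151 and 155 CPM at 24 h and 114, 130, 148, 125 and 123 CPM at 7 d. For SH-SY5Y the libraries held 215, 186, 207, 214 and 211 CPM, 161, 154, 159, 153 and 176 CPM and 118, 129, 141, 133 and 156 CPM in the same order. In IMR-32 it was at 338, 327, 352, 352 and 484 CPM, 298, 293, 286, 305 and 361 CPM and 298, 252, 293, 247 and 303 CPM, with the high control being replicate 5. Longer PB lay below all controls in each line, 24 h PB did so in SK-N-BE(2)C and SH-SY5Y, and the 24 h and longer libraries overlapped. UBTF was called at the longer time for SK-N-BE(2)C (-0.73 ± 0.07, adjusted p = 2e-07) and for SH-SY5Y (-0.62 ± 0.07, adjusted p = 5.4e-07), with -0.39 ± 0.11 (adjusted p = 0.0077) in IMR-32. TCOF1, the treacle protein that links UBTF and polymerase I, was called in SK-N-BE(2)C (-0.66 ± 0.07) and stood at -0.40 ± 0.09 and -0.38 ± 0.06 in the others. POLR1A, POLR1B and POLR1C lay between -0.28 ± 0.06 and 0.12 ± 0.14 over the lines, with 0 of 9 calls.

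POLR1B itself was at 108, 99.1, 90.9, 91.1 and 92.6 CPM at 24 h and 72.4, 55, 68.6, 64.6 and 69.4 CPM at 7 d in SK-N-BE(2)C, so it went above the controls first and then to or below them, and 7 d was called lower than 24 h (-0.52 ± 0.07, adjusted p = 1.4e-05). In SH-SY5Y it was at 146, 142, 141, 141 and 151 CPM and 123, 144, 138, 130 and 130 CPM, and in IMR-32 at 61.2, 49.5, 67.4, 58.1 and 85.7 CPM and 52.8, 50.2, 60.9, 54.3 and 78.4 CPM. Both lines overlapped their controls at 5 d (0.00 ± 0.06 and -0.14 ± 0.15).

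All 8 snoRNP genes had a fold change below 0 at the longer time in each line. Called lower were 6 for SK-N-BE(2)C, 2 for IMR-32 and 4 for SH-SY5Y (all genes 22.3%, 15.5% and 17.3%). On the adjusted p alone 8, 4 and 7 were lower in the same order (all genes 35.8%, 25.6% and 32.5%). FBL had the lowest fold change of all members for both MYCN-amplified lines. SK-N-BE(2)C libraries held FBL at 152, 101, 111, 132 and 116 CPM at 7 d, -1.49 ± 0.10 from the controls above (adjusted p = 1.4e-09). In IMR-32 it was at 292, 244, 288, 263 and 306 CPM in controls, 228, 321, 213, 223 and 251 CPM at 24 h and 143, 119, 153, 123 and 172 CPM at 5 d, which is -0.95 ± 0.12 (adjusted p = 1.8e-05). SH-SY5Y libraries held 165, 193, 218, 212 and 205 CPM, 132, 139, 164, 156 and 173 CPM and 75.2, 80.8, 117, 113 and 141 CPM, which is -0.92 ± 0.15 (adjusted p = 4.3e-05). In each line the highest library at the longer time was below the lowest control, and in IMR-32 and SH-SY5Y the 24 h libraries still overlapped the controls. Of the other core box C/D proteins, NOP58 was called for SK-N-BE(2)C (-0.66 ± 0.05) and for SH-SY5Y (-0.81 ± 0.12), and NOP56 in SH-SY5Y (-0.68 ± 0.09), with -0.50 ± 0.05 in SK-N-BE(2)C just inside the limit.

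Of the box H/ACA proteins, which carry out pseudouridylation, GAR1 fell for SK-N-BE(2)C (-1.01 ± 0.07) and for IMR-32 (-0.67 ± 0.17), and stood at -0.47 ± 0.08 in SH-SY5Y. DKC1, the pseudouridine synthase, fell for SK-N-BE(2)C (-0.55 ± 0.07) and for SH-SY5Y (-0.62 ± 0.10). NHP2 fell in SK-N-BE(2)C (-0.81 ± 0.07), and NOP10 was called in no line, between -0.39 ± 0.06 and -0.09 ± 0.08. NOLC1, a chaperone of snoRNPs, was the most abundant snoRNP member by CPM, at 598, 543, 573, 565 and 599 CPM in SK-N-BE(2)C controls, 655, 643, 609, 636 and 656 CPM at 24 h and 399, 310, 409, 443 and 424 CPM at 7 d. In IMR-32 its libraries held 452, 451, 480, 437 and 507 CPM, 383, 340, 410, 357 and 504 CPM and 357, 316, 404, 337 and 482 CPM, and in SH-SY5Y 334, 342, 316, 349 and 352 CPM, 321, 324, 313, 341 and 340 CPM and 255, 287, 297, 307 and 323 CPM. Only the 7 d group of SK-N-BE(2)C was called (-0.56 ± 0.08, adjusted p = 4.5e-06), a call lost at -0.49 without 7 d replicate 2, while in IMR-32 replicate 5 at 5 d lay within the controls.

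The 14 small subunit factors were called lower in 11 cases for SK-N-BE(2)C, 6 for IMR-32 and 3 for SH-SY5Y, beside 22.3%, 15.5% and 17.3% of all genes, with medians of -0.80, -0.48 and -0.28. The SH-SY5Y count is near the share of all genes. UTP20, a scaffold of the early small subunit particle, had the lowest fold change of all members in SH-SY5Y. SK-N-BE(2)C libraries held it at 152, 222, 194, 177 and 191 CPM in controls, 175, 188, 157, 165 and 161 CPM at 24 h and 79.2, 59.1, 61.7, 80.7 and 91 CPM at 7 d. SH-SY5Y had 97.9, 82.5, 80.3, 89.2 and 104 CPM, 71, 78.9, 69.5, 70.4 and 82.1 CPM and 33.3, 45.9, 44.9, 40.2 and 44.8 CPM. In IMR-32 it was at 86.9, 92.3, 84.6, 66 and 175 CPM, 60.3, 49.3, 70.2, 66.7 and 131 CPM and 47.5, 44.3, 53.3, 51.6 and 66.4 CPM. The longer time lay below every control in SK-N-BE(2)C and SH-SY5Y, and in IMR-32 it did so apart from replicate 5 at 66.4 CPM, just above the lowest control. The changes were -1.36 ± 0.11 (adjusted p = 2.7e-08), -1.13 ± 0.09 (adjusted p = 1.2e-08) and -0.92 ± 0.27 (adjusted p = 0.012) in SK-N-BE(2)C, SH-SY5Y and IMR-32. The IMR-32 value was -0.63 without control replicate 5 (adjusted p = 0.032).

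AATF, an early small subunit factor, was called in all lines. It was at 107, 101, 97.3, 101 and 91.2 CPM in SK-N-BE(2)C controls, 77.6, 77.8, 75.8, 74.6 and 80.7 CPM at 24 h and 44.3, 46.9, 60.8, 53.5 and 51.5 CPM at 7 d. The IMR-32 values were 58.8, 53.4, 66.2, 55.9 and 74.9 CPM, 43.3, 44.6, 48.6, 44.2 and 57.8 CPM and 35.7, 28.3, 40.2, 30.2 and 38.2 CPM, and those of SH-SY5Y were 62.1, 56.1, 63.8, 59.4 and 56.4 CPM, 47.2, 42.9, 50.2, 48.6 and 48.9 CPM and 30.3, 32.3, 38.6, 36 and 45.4 CPM. Controls and longer PB did not overlap in any line, and the changes were -0.98 ± 0.08, -0.82 ± 0.12 and -0.72 ± 0.09 in SK-N-BE(2)C, followed by IMR-32 and by SH-SY5Y (adjusted p of 9.1e-09, 5.7e-05 and 1.2e-06). HEATR1, a subunit of the complex that joins transcription to processing, was at 153, 174, 163, 152 and 159 CPM in SK-N-BE(2)C controls, 174, 174, 156, 156 and 147 CPM at 24 h and 110, 94.4, 101, 102 and 112 CPM at 7 d, and was called in that line (-0.65 ± 0.06, adjusted p = 5.1e-08). In IMR-32 it was at 162, 178, 164, 145 and 251 CPM, 140, 97.8, 145, 137 and 213 CPM and 121, 132, 130, 140 and 158 CPM, and in SH-SY5Y at 230, 217, 201, 230 and 239 CPM, 208, 229, 211, 203 and 233 CPM and 166, 204, 184, 173 and 184 CPM. Both overlapped their controls at 5 d, at -0.39 ± 0.18 (adjusted p = 0.079) and -0.31 ± 0.07 (adjusted p = 0.00064). HEATR1 shares 2095 exonic bases with a gene on the other strand.

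Other small subunit factors fell in 1 or 2 lines. RRP9, a protein of the U3 snoRNP, fell by 1.22 on the log2 scale at 7 d in SK-N-BE(2)C with no overlap, and was at -0.42 ± 0.21 and -0.36 ± 0.11 in IMR-32 and SH-SY5Y. WDR43 fell for SK-N-BE(2)C (-0.95 ± 0.08) and for SH-SY5Y (-0.53 ± 0.07), and NOP14 (-0.82 ± 0.06 and -0.51 ± 0.15), DDX10 (-0.60 ± 0.06 and -0.56 ± 0.11) and LTV1 (-1.01 ± 0.08 and -0.57 ± 0.14) for both MYCN-amplified lines. In IMR-32 NOP14 and LTV1 lay near the fold limit. Their highest control there was replicate 5, at 153 CPM for NOP14 (others 103 to 107) and 50.1 CPM for LTV1 (others 29.9 to 42.7). NOB1, the endonuclease that makes the final cut of the small subunit RNA, was called in IMR-32 (-0.52 ± 0.09) and not in SK-N-BE(2)C (-0.13 ± 0.09). UTP15, PNO1 and NOL6 were called in SK-N-BE(2)C, and WDR3 and RRP12 in no line.

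Large subunit factors were called lower in 11 of 15 cases for SK-N-BE(2)C, 4 for IMR-32 and 3 for SH-SY5Y, against the same shares of all genes, and the SH-SY5Y count is near that share. MRTO4, a placeholder for the stalk protein of the large subunit, was called in all lines. It was at 76.2, 78.7, 70.7, 68.6 and 69.8 CPM in SK-N-BE(2)C controls, 59.5, 61.7, 49.5, 49.7 and 53.4 CPM at 24 h and 35.1, 30.4, 28.1, 35.5 and 34 CPM at 7 d. It was at 31.4, 31.7, 32.7, 30.8 and 44.4 CPM, 25, 34.5, 26.8, 26.9 and 36.5 CPM and 25.7, 20.3, 22, 20.9 and 26.9 CPM in IMR-32, and at 89.3, 85, 92.4, 86 and 96 CPM, 73.9, 67.3, 77.6, 76.2 and 73.2 CPM and 46.1, 48.6, 60.2, 53.6 and 72.7 CPM in SH-SY5Y. No longer PB library overlapped its controls, and the changes were -1.19 ± 0.08 (adjusted p = 1.2e-09), -0.54 ± 0.13 (adjusted p = 0.0034) and -0.69 ± 0.09 (adjusted p = 5e-06) in SK-N-BE(2)C, followed by IMR-32 and by SH-SY5Y. The IMR-32 call was lost at -0.43 without control replicate 5, at -0.50 without 5 d replicate 2 and at -0.48 without replicate 5 of every IMR-32 group. RRP1B, a nucleolar partner of protein phosphatase 1, was the most abundant large subunit member by CPM, at 368, 360, 324, 316 and 332 CPM in SK-N-BE(2)C controls, 355, 338, 286, 296 and 303 CPM at 24 h and 225, 176, 213, 217 and 222 CPM at 7 d. The SH-SY5Y values were 129, 130, 113, 149 and 146 CPM, 98.6, 106, 97.6, 109 and 110 CPM and 58.2, 74.4, 83.2, 90.8 and 92 CPM, and those of IMR-32 were 193, 207, 203, 191 and 256 CPM, 169, 131, 173, 158 and 216 CPM and 152, 135, 166, 137 and 202 CPM. It fell without overlap for SK-N-BE(2)C (-0.72 ± 0.07, adjusted p = 2e-07) and for SH-SY5Y (-0.75 ± 0.10, adjusted p = 7.2e-06), and in IMR-32, where replicate 5 at 5 d lay among the controls, it was at -0.39 ± 0.13 (adjusted p = 0.025).

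Of the PeBoW genes, PES1 fell in SK-N-BE(2)C (-0.71 ± 0.05), and WDR12 (-0.22 ± 0.05) and BOP1 (-0.25 ± 0.07) were also below 0 there, within the fold limit. BOP1 was at 126, 124, 125, 118 and 126 CPM at 24 h and 95.4, 74.7, 98.1, 108 and 99.7 CPM at 7 d in SK-N-BE(2)C, at 157, 209, 166, 152 and 211 CPM and 174, 145, 190, 146 and 193 CPM at 24 h and 5 d in IMR-32, and at 65.5, 54.5, 64, 66.9 and 63.7 CPM and 40.1, 44.9, 55.4, 43.7 and 61.4 CPM in SH-SY5Y. Only in SH-SY5Y was its change at 5 d near the limit (-0.41 ± 0.10, adjusted p = 0.00099), and it was called there at -0.51 without 5 d replicate 5. BRIX1, EBNA1BP2, DDX18 and NOP16 fell in SK-N-BE(2)C by 1.17, 1.15, 0.96 and 0.73 on the log2 scale. PPAN was the member called higher, at 14.6, 16.4, 15.6, 13.5 and 15.3 CPM in SK-N-BE(2)C controls and 21.9, 20.5, 24.5, 20 and 23.2 CPM at 7 d, a rise of 0.52 ± 0.08 (adjusted p = 3.6e-05) with no overlap. PPAN and POLR1C were the members with no fold change below 0 in any line. In SH-SY5Y PPAN changed by 0.47 ± 0.12 (adjusted p = 0.0021), within the limit.

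The 5 genes with several roles were called lower in 5 cases in SK-N-BE(2)C (all genes 22.3%), 3 in IMR-32 (all genes 15.5%) and 3 in SH-SY5Y (all genes 17.3%). NCL, nucleolin, binds the ribosomal RNA precursor. SK-N-BE(2)C libraries held it at 2374, 2304, 2145, 2145 and 2174 CPM in controls, 2092, 2078, 1879, 1889 and 1959 CPM at 24 h and 1171, 882, 1052, 1199 and 1143 CPM at 7 d. In IMR-32 it was at 1442, 1375, 1590, 1419 and 1744 CPM, 1271, 1350, 1327, 1240 and 1541 CPM and 980, 859, 1114, 863 and 1150 CPM. SH-SY5Y had 887, 897, 960, 1002 and 942 CPM, 649, 640, 695, 738 and 719 CPM and 379, 428, 521, 498 and 609 CPM. The 3 groups were fully separate for SH-SY5Y and also for SK-N-BE(2)C, and in every line the longer time lay below all controls, with changes of -1.06 ± 0.07, -0.59 ± 0.10 and -0.96 ± 0.10 in SK-N-BE(2)C, followed by IMR-32 and by SH-SY5Y (adjusted p of 2.6e-09, 0.00019 and 1.6e-07).

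NPM1 was lower at the longer time in each line. From the control values given above it went to 1903, 1991, 1743, 1759 and 1790 CPM at 24 h and 1005, 934, 1138, 1096 and 993 CPM at 7 d in SK-N-BE(2)C. The IMR-32 libraries held 1373, 1826, 1454, 1265 and 1783 CPM and 824, 779, 1020, 812 and 991 CPM, and in SH-SY5Y at 557, 568, 632, 712 and 650 CPM and 334, 395, 524, 495 and 589 CPM. The 24 h libraries overlapped the controls in each line, and those at the longer time did not: the changes were -0.91 ± 0.06, -0.77 ± 0.12 and -0.74 ± 0.12 in SK-N-BE(2)C, followed by IMR-32 and by SH-SY5Y (adjusted p of 2.5e-09, 1e-04 and 3.5e-05). GNL3, nucleostemin, was also called in all lines (-0.67 ± 0.07, -0.55 ± 0.09 and -0.53 ± 0.10), and DDX21, an RNA helicase, in SK-N-BE(2)C (-0.71 ± 0.07).

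**Figure D5:**
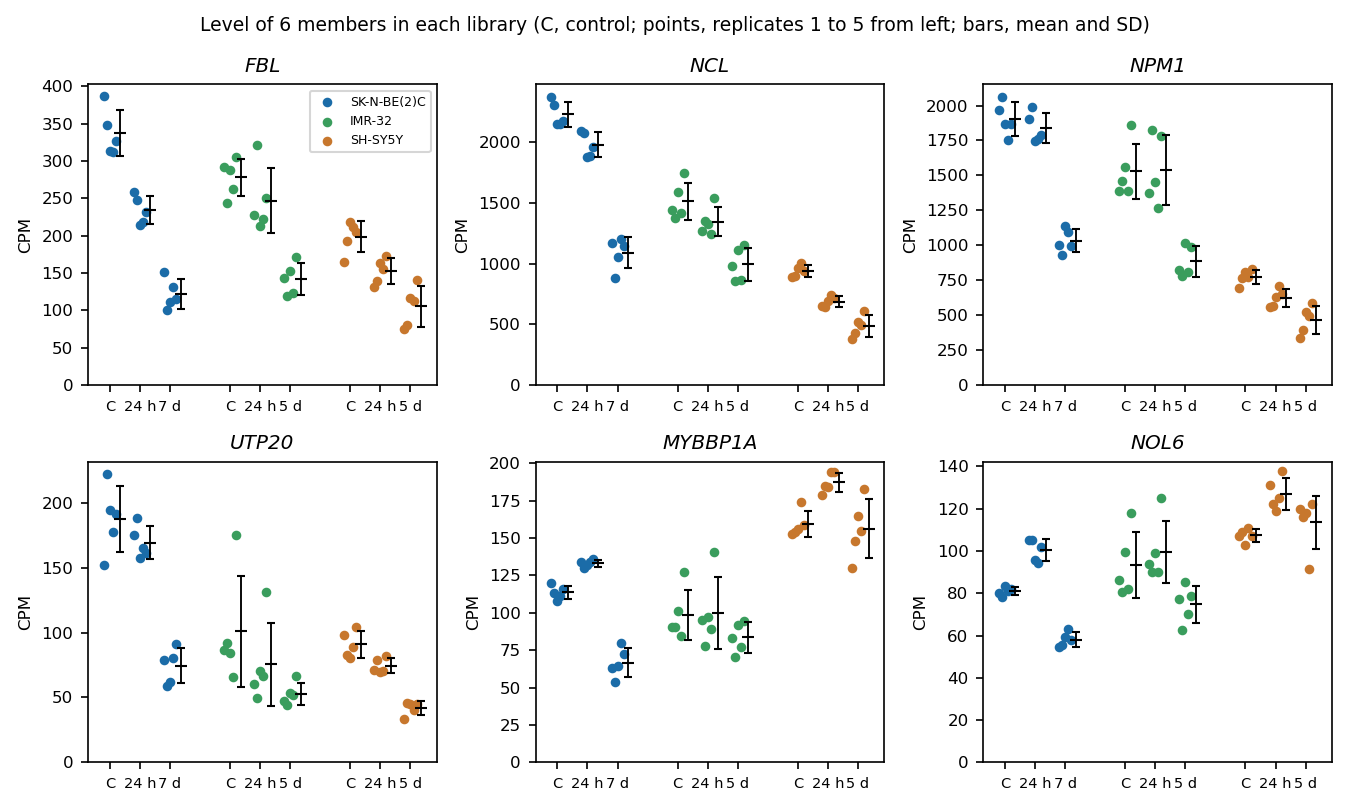
CPM (y axis, from 0) of FBL, NCL, NPM1, UTP20, MYBBP1A and NOL6 in each library by line and condition, points being replicates and bars the mean and SD. FBL, NCL, NPM1 and UTP20 are lowest with longer PB in each line, while MYBBP1A and NOL6 fall at 7 d in SK-N-BE(2)C and remain near their controls at 5 d in SH-SY5Y.

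The longer time was also compared with 24 h. Against 24 h, 7 d of PB was called lower for 33 members in SK-N-BE(2)C (all genes 14.4%) and 5 d for 14 in IMR-32 (all genes 8.86%) and 2 in SH-SY5Y (all genes 6.23%), with medians of -0.64, -0.39 and -0.24. The IMR-32 count became 8 without 24 h replicate 5. On the adjusted p alone 46 members were lower and 1 higher for SK-N-BE(2)C (all genes 30% and 29.3%), with 24 lower for IMR-32 (all genes 17.8%) and 30 for SH-SY5Y (all genes 21.4%). The SH-SY5Y calls were UTP20 (-0.82 ± 0.09, adjusted p = 5.4e-06) and FBL (-0.52 ± 0.15, adjusted p = 0.009), and the FBL call was lost without any 1 of 4 libraries. In SH-SY5Y the 2 calls are no larger a share than all genes gave. Some members had reached most of their change by 24 h: NOP56 in SH-SY5Y (-0.61 ± 0.09 and then -0.68 ± 0.09 against control) and UBTF in SK-N-BE(2)C (-0.50 ± 0.07 and -0.73 ± 0.07). The MCM genes at the longer time were called lower against control in 6, 4 and 6 of 6 cases (medians -1.23, -0.88 and -1.41), and for IMR-32 6 of 6 were higher at 5 d than at 24 h (median 1.26). These comparisons share the longer PB libraries with those against the controls.

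The longer response was then compared between SH-SY5Y and the MYCN-amplified lines, as the difference of fold changes. In SH-SY5Y it was less negative than the mean of the MYCN-amplified lines for 7 members called (all genes 8.46%) and more negative for 0 (all genes 8.35%, and 2 members at an unadjusted p under 0.05), with a median difference of 0.25 (SD 0.212 between libraries) against 0.01 over all genes. The 7 were LTV1 (0.56 ± 0.13), EBNA1BP2 (0.56 ± 0.15), NOP2 (0.55 ± 0.14), RRP12 (0.52 ± 0.12), MYBBP1A (0.52 ± 0.13), NOL6 (0.51 ± 0.11) and RRP9 (0.51 ± 0.18), each near the fold limit, and 3 remained called with DESeq2, with RLE scaling or without IMR-32 replicate 5, and 2 without replicate 2 of all groups. NOP2 shares 2550 of its 4687 exonic bases and LTV1 643 of its 1853 with other genes on the same strand, so their counts are uncertain. Against SK-N-BE(2)C alone 16 were called higher (all genes 9.89%) and 0 lower (all genes 11.3%), with a median difference of 0.35 (SD 0.192). Against IMR-32, at 5 d in both, 2 were called higher (all genes 11.3%) and 0 lower (all genes 9.46%): RRP12 (0.56 ± 0.14) and RRS1 (0.54 ± 0.21). The median difference there was 0.11 (SD 0.305), with 0.03 over all genes. The MYCN-amplified lines differed from each other for 6 members with the larger fall in SK-N-BE(2)C, a share near the 10.7% of all genes: FBL, NHP2, RRP9, MRTO4, EBNA1BP2 and MYBBP1A. The count fell to 3 without replicate 2 or replicate 3 and rose to 12 without replicate 5. These contrasts share libraries, and the one against SK-N-BE(2)C sets 5 d beside 7 d.

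NOL6, a scaffold of the small subunit particle, was at 80.3, 78.1, 83.2, 81 and 82.2 CPM in SK-N-BE(2)C controls, 105, 105, 95.7, 94.2 and 102 CPM at 24 h and 54.5, 55.3, 59.5, 63.2 and 58.1 CPM at 7 d. In SH-SY5Y it was at 107, 109, 103, 111 and 107 CPM, 131, 122, 119, 125 and 138 CPM and 120, 116, 118, 91.6 and 122 CPM, and in IMR-32 at 86.4, 80.5, 99.3, 82 and 118 CPM, 93.7, 90.2, 98.9, 90.1 and 125 CPM and 77.3, 62.7, 85.1, 70 and 78.7 CPM. At the longer time SK-N-BE(2)C was below every control (-0.51 ± 0.05), and in SH-SY5Y 4 of 5 libraries were above every control, with replicate 4 below (0.07 ± 0.07, adjusted p = 0.42). The difference from SK-N-BE(2)C was 0.60 ± 0.12 (adjusted p = 0.00019) and from IMR-32 0.42 ± 0.12 (adjusted p = 0.007). MYBBP1A, a nucleolar corepressor, had a like course: 120, 113, 108, 111 and 116 CPM, 134, 130, 132, 134 and 136 CPM and 62.9, 54, 64.3, 79.8 and 72.3 CPM in SK-N-BE(2)C. The SH-SY5Y libraries held 153, 154, 156, 174 and 159 CPM, 179, 185, 184, 194 and 194 CPM and 130, 148, 165, 155 and 183 CPM, and those of IMR-32 90.3, 90.5, 101, 84.7 and 127 CPM, 95.2, 77.9, 96.9, 88.9 and 141 CPM and 83.1, 70.5, 92.1, 77.3 and 94.8 CPM. In SK-N-BE(2)C 24 h stood above and 7 d below all controls, and in the other lines the 5 d libraries overlapped the controls, with changes of -0.80 ± 0.08, -0.22 ± 0.15 and -0.04 ± 0.07 in SK-N-BE(2)C, followed by IMR-32 and by SH-SY5Y. The difference of SH-SY5Y from SK-N-BE(2)C was 0.79 ± 0.15 (adjusted p = 1e-04).

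LTV1, an export factor of the small subunit, was at 57.2, 66.7, 70.1, 65.8 and 66.5 CPM in SK-N-BE(2)C controls, 55.8, 62.9, 65.2, 61.4 and 66 CPM at 24 h and 35.2, 29.9, 30.4, 33 and 37.4 CPM at 7 d. In IMR-32 it was at 35.4, 33.7, 42.7, 29.9 and 50.1 CPM, 34.7, 42.4, 39.3, 33.4 and 49 CPM and 25.1, 23.5, 26.1, 23.1 and 29.5 CPM, and in SH-SY5Y at 45.9, 42, 48.1, 42.6 and 45 CPM, 47.9, 37.4, 43.4, 46 and 44.3 CPM and 32.7, 36.4, 40.4, 35.4 and 41.8 CPM. Each line was below its controls at the longer time, SH-SY5Y least (-0.27 ± 0.08), and the difference from SK-N-BE(2)C was 0.76 ± 0.14 (adjusted p = 7.4e-05). RRP12, another export factor, was at 86.7, 97.7, 103, 96.8 and 97 CPM in SK-N-BE(2)C controls, 107, 105, 114, 117 and 127 CPM at 24 h and 68.3, 64.3, 91.5, 87.2 and 85.5 CPM at 7 d. In SH-SY5Y it was at 119, 115, 122, 125 and 113 CPM, 146, 132, 138, 133 and 144 CPM and 136, 135, 141, 114 and 136 CPM, and in IMR-32 at 73.7, 69.4, 79.3, 69.6 and 95.7 CPM, 82.4, 79.8, 86.1, 81.1 and 111 CPM and 55.7, 50.6, 65.2, 54.3 and 74.2 CPM. It was called in no line against control, and its difference between SH-SY5Y and IMR-32 (0.56 ± 0.14, adjusted p = 0.002) set a change of 0.15 ± 0.06 beside one of -0.35 ± 0.12. For members called in all lines the difference from the mean of the MYCN-amplified lines did not pass: its 95% interval was -0.31 to 0.13 for NCL, -0.11 to 0.40 for NPM1, -0.39 to 0.50 for UTP20 and 0.04 to 0.65 for FBL (adjusted p = 0.094), so differences of these sizes are not excluded.

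Members with and without the E-box of the sequences above were set side by side as a description. In SK-N-BE(2)C at 7 d the median fold change was -0.95 for the 15 members with it, 14 of them called lower, and -0.62 for the 24 without it, 15 of them called lower (all genes 22.3%). In IMR-32 at 5 d the medians were -0.49 and -0.40 (7 of 15 and 7 of 24 called lower, all genes 15.5%), and in SH-SY5Y -0.36 and -0.25 (5 of 15 and 7 of 24 called lower, all genes 17.3%). Of the 7 members called lower in every line, FBL, UTP20, AATF and MRTO4 had it in the window searched and NCL, NPM1 and GNL3 did not, and NOP10, with 2 matches, was called in none. snoRNA genes lie within 8 of 47 members (17.0%) and within 2.33% of the 16999 protein-coding genes in the counts: POLR1C, NOP56, NOP58, DKC1, WDR43, PPAN, NCL and GNL3. In SH-SY5Y at 5 d the median was -0.58 for these 8 and -0.28 for the other 39, in SK-N-BE(2)C -0.60 and -0.71, and in IMR-32 -0.44 and -0.42.

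The remaining genes of the pathway, from a list of 107 other ribosome biogenesis genes of which 106 were tested, were counted by the same rule. At 24 h 2 were called lower and 1 higher for SK-N-BE(2)C, 4 and 2 for IMR-32, and 0 and 0 in SH-SY5Y (28 and 16 at an unadjusted p under 0.05). At 24 h all genes were called lower and higher in 10.6% and 10.9%, 10.5% and 7.87%, and 11% and 10.5% in the same order. At the longer time 58 were lower and 2 higher for SK-N-BE(2)C, 23 and 2 for IMR-32, and 7 and 0 in SH-SY5Y, with medians of -0.55, -0.28 and -0.25. All genes were called lower in 22.3%, 15.5% and 17.3% and higher in 24.5%, 16.6% and 18.6%, and the SH-SY5Y count of 7 of 106 is below that share. The largest falls were those of POLR1G (-1.82), a polymerase I subunit, LYAR (-1.27) and NOC3L (-1.14) in SK-N-BE(2)C, NOC3L (-1.11), TMA16 (-0.88) and LYAR (-0.86) in IMR-32, and TMA16 (-0.87), NOL8 (-0.65) and POLR1F (-0.63) in SH-SY5Y. Rises were called for NOP53 (0.63) and POLR1D (0.59) in SK-N-BE(2)C and for POLR1E (0.83) and DDX49 (0.53) in IMR-32. For the genes of the ribosomal proteins themselves few were called against control: at the longer time 1 of 77 was lower and 4 higher for SK-N-BE(2)C, 1 of 78 lower and 0 higher for IMR-32, and 0 of 79 lower and 1 higher in SH-SY5Y. At 24 h their median fold changes were 0.26, 0.49 and 0.27, with 3, 34 and 0 called higher (all genes 10.9%, 7.87% and 10.5%). In IMR-32 replicate 2 was the highest 24 h library for most of these genes. It held RPS2 at 4719 CPM (others 3215 to 3744) and RPL13A at 4883 CPM (others 3075 to 3258). Against 24 h, longer PB was called lower for 53 of 78 in IMR-32 (median -0.57), 2 of 77 in SK-N-BE(2)C (median -0.12) and 0 of 79 in SH-SY5Y (median -0.13, 11 lower on the adjusted p alone and 13 at an unadjusted p under 0.05). All genes were called lower in 8.86%, 14.4% and 6.23% in the same order, and in 21.4% on the adjusted p alone in SH-SY5Y. Whether the IMR-32 counts of these genes hold without 24 h replicate 2 was not tested.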

How the data were processed

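RNA-seq counts per gene were deposited by the authors in 1 table for each line, 15 libraries each. Per the study's methods, polyA libraries made with a directional kit were sequenced as paired reads, trimmed at a minimum quality of 20, aligned to hg19 and counted with STAR. The submitters' processing notes list Trim Galore 0.6.4, STAR 2.6.1d and DESeq2 1.32.0. No source used here says which strand column of the STAR output was kept, and reads of overlapping genes on opposite strands may not be told apart. The deposited CPM tables and the authors' fold change and adjusted p tables were not used.

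The members and the other gene lists were chosen with earlier results of these data known. Counts were tested with edgeR 4.0.16 in R 4.3.3 (TMM scaling, filterByExpr with minimum counts of 10 and 15 and a proportion of 0.7, robust quasi-likelihood fit, Benjamini-Hochberg adjustment over all genes tested), in 1 fit of 15 libraries per line and, between lines, 1 fit of 45 over 16282 genes. SE was the absolute log2 fold change over the square root of F, intervals were the estimate ± 1.96 SE (95%), and CPM came from TMM-scaled library sizes. Named members were the most abundant by mean CPM in each role and the members with the largest changes among those called in all lines. Added to these were the members with the smallest adjusted p among those called between lines, in control level or in the longer response. The other members named were chosen after their values were seen. On simulated data for SK-N-BE(2)C at 7 d (13919 genes), 88% of genes changed by 0.8 and 97% of those changed by 1.5 on the log2 scale were recovered, and for the longer response of SH-SY5Y less the mean of the MYCN-amplified lines (16122 genes) 77% and 91%. The biological coefficient of variation was 13.8%, 19.8% and 11.2% in SK-N-BE(2)C, followed by IMR-32 and by SH-SY5Y. No 2 replicates agreed within sampling noise (chi-square per degree of freedom 1.69 to 86.9 over 90 pairs). Alternatives were RLE factors, library size alone, no filter, DESeq2 1.42.0, the adjusted p alone, a replicate block and leaving out replicates. Replicates shared numbers across the groups of a line, and the main tests did not pair them. Deviations of same-numbered samples from their group means correlated at 0.111 or more in every pair for IMR-32 and 0.11 or more for SH-SY5Y. For SK-N-BE(2)C it was 0.0629 or more, and only control and 24 h passed 0.1 in every pair. Samples were compared for control with 24 h, control with longer PB and 24 h with longer PB. Of 5 samples, those correlating best with their own number were 5, 5 and 3 in SH-SY5Y. They were 3, 3 and 1 in IMR-32 and 3, 2 and 2 in SK-N-BE(2)C.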

Additional observations from a re-analysis of the deposited data

Results flagged for a closer look

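Of 171 tests for a library far from the rest of its group of 5, 17 (9.94%) found one, where chance gives about 5% of independent tests. These tests share the libraries of the same 9 groups, so they are not independent. IMR-32 replicate 5 was the high library for 9 of the 17. In the controls it held UBTF at 484 CPM (others 327 to 352), RRP1B at 256 (others 191 to 207), UTP20 at 175 (others 66 to 92.3) and MRTO4 at 44.4 (others 30.8 to 32.7). At 24 h it held UBTF at 361 CPM, UTP20 at 131, NOL6 at 125, RRP12 at 111 and MYC at 0.266, a level near the floor. In SK-N-BE(2)C the low libraries were BOP1 at 24 h in replicate 4 (118 CPM), and at 7 d in replicate 2 RRP1B (176 CPM) and MYCN (1893 CPM). In SH-SY5Y they were UBTF in control replicate 2 (186 CPM), BOP1 at 24 h in replicate 2 (54.5 CPM), and at 5 d in replicate 4 NOL6 (91.6 CPM) and RRP12 (114 CPM), with MYBBP1A high in control replicate 4 (174 CPM).

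The response to longer PB differed between lines by edgeR's test of the difference for these named members. For SH-SY5Y minus the mean of the MYCN-amplified lines the log2 differences were 0.51 for NOL6, 0.52 for RRP12, 0.56 for LTV1 and 0.52 for MYBBP1A. For SH-SY5Y minus SK-N-BE(2)C they were 0.60 for FBL, 0.60 for NOL6, 0.76 for LTV1, 0.53 for MRTO4 and 0.79 for MYBBP1A, and for SH-SY5Y minus IMR-32 0.56 for RRP12. For SK-N-BE(2)C minus IMR-32 they were -0.51 for FBL, -0.62 for MRTO4 and -0.55 for MYBBP1A.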

How the results depend on the processing

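No value of the members named by rule changed its sign while called under any alternative, and the other members were not checked for this. The counts for 7 d in SK-N-BE(2)C stayed within 1.5 times. On the adjusted p alone, the members called became 21, 5 and 17 at 24 h in SK-N-BE(2)C, followed by IMR-32 and by SH-SY5Y, 28 and 38 at 5 d in IMR-32 and SH-SY5Y, 24 and 31 for 5 d against 24 h, 16 for SH-SY5Y minus the mean of the MYCN-amplified lines, 9 for SH-SY5Y minus IMR-32, 16 for SK-N-BE(2)C minus IMR-32, and 38 and 41 for the control levels of SH-SY5Y and of SK-N-BE(2)C against IMR-32. At 24 h RLE factors and DESeq2 gave 2, 1 and 3 in SK-N-BE(2)C, followed by IMR-32 and by SH-SY5Y, and each gave 3 for SH-SY5Y minus the mean. Without the filter there were 0 in IMR-32 and 3 in SH-SY5Y at 24 h, 3 for SH-SY5Y minus the mean and 1 for SH-SY5Y minus IMR-32, and library size alone gave 1 in IMR-32 at 24 h and 1 in SH-SY5Y for 5 d against 24 h. With the replicate block IMR-32 at 24 h gave 1, and no other count moved past 1.5 times. Leaving out single libraries gave, against control, 1 to 3 and 33 to 37 in SK-N-BE(2)C, 0 to 2 and 9 to 21 in IMR-32, and 1 to 3 and 12 to 19 in SH-SY5Y, and against 24 h 30 to 35, 8 to 19 and 1 to 4. Between lines it gave 2 to 8, 11 to 17 and 1 to 3 for SH-SY5Y against the mean, against SK-N-BE(2)C and against IMR-32, with 3 to 12 for SK-N-BE(2)C minus IMR-32. Chosen after seeing the data, leaving out IMR-32 replicate 5 gave 3, 1 and 11 for the contrasts with the mean, with IMR-32 and between the MYCN-amplified lines, and replicates 1 to 3 of SK-N-BE(2)C alone gave 1, 37 and 37. The causes were not tested.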
